A study of Homo sapiens with 9 samples.

Results

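The 2-oxoglutarate-dependent dioxygenases were described in RBE cells, a human intrahepatic cholangiocarcinoma line that the series names in connection with mutant IDH1. The family was taken as 56 genes by symbol, and each of the 56 matched 1 row among the 36225 genes of the deposited table. By substrate class the set held 16 histone demethylases, 5 DNA enzymes, 4 RNA enzymes, 5 enzymes of the hypoxia-inducible factor (HIF) pathway, 9 collagen hydroxylases, 14 enzymes that act on other proteins or whose substrate is not settled, and 3 enzymes of small molecules. Messenger RNA was sequenced after lentiviral infection with a scramble hairpin (control), a hairpin against IDH1 (shIDH1) or a hairpin against the deubiquitinase gene JOSD2 (shJOSD2), with 3 libraries in each group. All 3 groups are the same cell line and all carried a lentivirus. The labels give 1 hairpin name per target and no time after infection and do not state if replicate libraries were infected separately. The p-values therefore cover only the spread between the libraries at hand, and this spread may be technical.

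These enzymes use molecular oxygen, ferrous iron and 2-oxoglutarate to hydroxylate or demethylate a substrate, release succinate and carbon dioxide, and often need ascorbate to stay active. Isocitrate dehydrogenases make 2-oxoglutarate, whereas cancer-associated mutant IDH1 makes 2-hydroxyglutarate, a close structural analogue that can compete with 2-oxoglutarate at many family members. Several members are themselves transcribed more in hypoxia, because HIF binds short hypoxia response elements near their genes. Messenger RNA does not report enzyme activity, and neither metabolite was measured here.

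Library totals were between 66036276 and 71612713 deposited counts. Both hairpin targets had lower RNA in both hairpin groups. IDH1 was 45.6, 39.0 and 47.4 FPKM (fragments scaled by transcript length and by library total) in control, 12.4, 13.1 and 12.3 FPKM in shIDH1 and 32.7, 35.2 and 35.5 FPKM in shJOSD2 libraries. JOSD2 was 6.66, 6.31 and 6.15, 1.505, 1.85 and 1.70 and 0.771, 0.708 and 0.906 FPKM in the same order. All 10 proliferation genes listed, MKI67 and TOP2A among them, were lower in shIDH1 (median log2 difference −3.44) and in shJOSD2 (−1.57). The 6 biliary epithelial markers summed to between 1460 and 1838 FPKM in every library, but single markers moved apart. KRT7 was at 312 to 403 FPKM in control and 186.5 to 207 FPKM in shIDH1, and EPCAM was also lower there. KRT8 was at 320 to 397 and 528 to 541 FPKM, and KRT18 at 379 to 417 and 514 to 544 FPKM. KRT19 and SOX9 overlapped between these groups. In shJOSD2, KRT19 lay below control and SOX9 above it. EPCAM was at 22.62 to 23.65 FPKM there and 20.25 to 22.25 FPKM in control. This small gap is lost when the values are divided by the library scaling factors given below. The 5 endothelial markers were each under 1 FPKM throughout. The 7 fibroblast markers summed to between 13.9 and 16.7 FPKM in control, 34.4 and 36.4 FPKM in shIDH1 and 32.4 and 33.5 FPKM in shJOSD2 libraries, with 4 of the 7 under 1 FPKM in every library. The 6 leukocyte markers summed to between 24.4 and 39.1 FPKM, with 3 of the 6 under 1 FPKM in every library. The 12 hepatocyte markers summed to 45.9 FPKM in control replicate 1, 99.7 and 103 FPKM in the other control libraries, 121 to 127 FPKM in shIDH1 and 68.5 to 71.4 FPKM in shJOSD2. In APOA1, an apolipoprotein of plasma, control replicates 2 and 3 stood apart at 40.1 and 45.6 FPKM, whereas control replicate 1 was at 2.91 FPKM and the hairpin libraries at 2.51 to 6.24 FPKM. In ALB, APOA2, APOB, TTR and AHSG, at lower levels, control replicates 2 and 3 also lay above all other libraries. AHSG was at 5.10 and 5.91 FPKM in these 2 and at 0.342 FPKM in control replicate 1. The fibrinogen gene FGB was instead at 1.53 to 1.87 FPKM in control, 41.9 to 44.7 FPKM in shIDH1 and 7.01 to 7.35 FPKM in shJOSD2. With control replicates 2 and 3 left out together, single member values moved, and some calls were lost and others gained. With shIDH1 the log2 difference of KDM7A was then 0.49 instead of 0.79, and that of EGLN3 0.08 instead of 0.21. That of TET3 grew from 0.20 to 0.26. With shJOSD2, P4HA1 and KDM5B were at 0.14 and 0.09 instead of 0.28 and 0.24. The part of these marker and proliferation differences in the results on the dioxygenases was not tested. In bulk RNA, fewer cells of a type and less RNA per cell cannot be told apart.

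Most family members were expressed in RBE cells. In control libraries 50 of the 56 had a mean of at least 1 FPKM and 11 reached 10 FPKM, and the median of the 55 tested members was 4.95 FPKM beside 1.53 FPKM over the 21492 genes tested. ASPH, the aspartyl and asparaginyl hydroxylase of the endoplasmic reticulum, was highest at 53.0 ± 1.85 FPKM (SD, n = 3). It was followed by PLOD3, a collagen lysyl hydroxylase with glycosyltransferase activity, at 21.2 ± 1.21 FPKM, and by KDM3B, an H3K9 demethylase, at 15.8 ± 0.781 FPKM. EGLN1, the main HIF prolyl hydroxylase, stood at 15.3 ± 1.88 FPKM and overlapped the range of KDM3B. The highest DNA and RNA enzymes were ALKBH3 at 11.0 ± 0.809 FPKM and ALKBH5 at 12.4 ± 1.31 FPKM. The 6 members under 1 FPKM in control were KDM7A, TET2, HSPBAP1, P4HA3, TET1 and BBOX1. BBOX1, the last enzyme of carnitine synthesis, had deposited counts of 4, 0 and 0 in control, 0, 0 and 0 in shIDH1 and 10, 0 and 13 in shJOSD2 libraries, and was the only member left out of the tests by the filter on low counts.

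**Figure D1:**
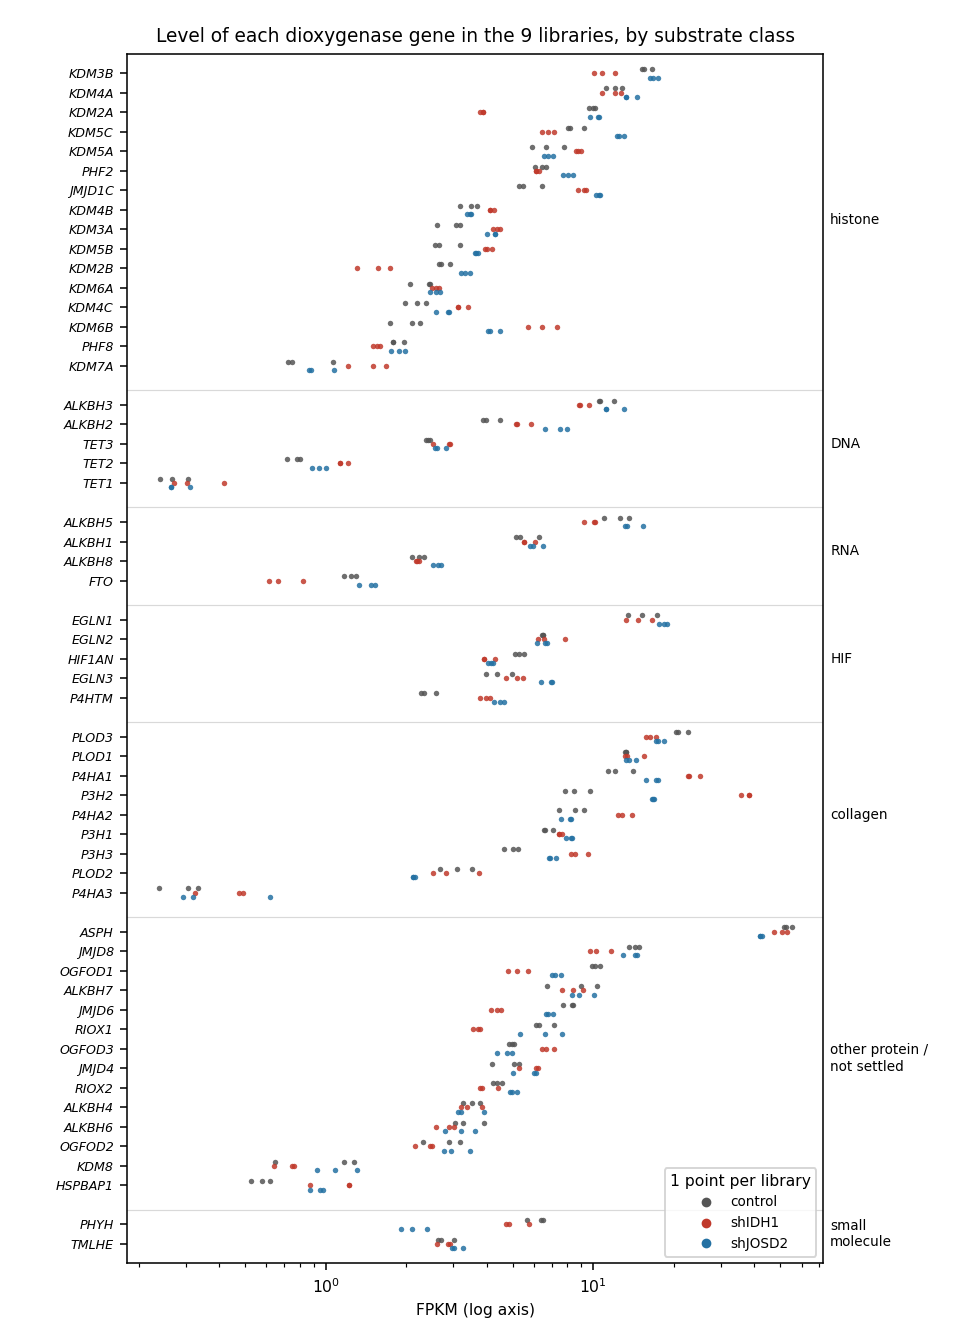
Each of the 55 tested dioxygenase genes is a row, grouped by substrate class, and each of the 9 libraries is a point on a logarithmic FPKM axis, coloured by group. ASPH is the highest row, TET1 and P4HA3 lie under 1 FPKM, and the shIDH1 points of KDM2A, KDM2B and FTO stand left of the others.

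With shIDH1, 33 of the 55 tested members differed from control, 19 higher and 14 lower, beside 50.1% of all tested genes (24.5% higher and 25.6% lower). A call here means an adjusted p under 0.05 in edgeR's quasi-likelihood test, adjusted by the method of Benjamini and Hochberg over the 21492 genes. With shJOSD2, 20 members were called, 12 higher and 8 lower, beside 38.3% of all genes (18.2% and 20.1%). The direct comparison of shIDH1 with shJOSD2 called 29 members, 17 higher in shIDH1 and 12 lower, beside 44.8% of all genes (20.8% and 24%). Relative to these backgrounds the members' shares were 60%, 36.4% and 52.7%. Among genes of at least 1 FPKM the background was 67.8%, 52.7% and 62.9%, where 31, 19 and 28 of 50 members were called. A large share of the transcriptome was called in each comparison, and among genes of at least 1 FPKM the members' share was near or below the background.

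The changes in the family were mostly small. The median size of the log2 difference over members was 0.37 with shIDH1, 0.15 with shJOSD2 and 0.29 between the hairpins, beside 0.56, 0.41 and 0.49 over all tested genes. Among genes of at least 1 FPKM these medians were 0.33, 0.16 and 0.26 for members and 0.46, 0.31 and 0.40 for all. The signed medians of the members were 0.00, 0.00 and 0.04, beside 0.01, 0.03 and −0.06 over all genes. Called members that changed at least 1.5-fold numbered 16 with shIDH1, 8 with shJOSD2 and 13 between hairpins, and 3, 1 and 3 of these changed at least 2-fold. In these comparisons no library overlapped between groups in FPKM for 35, 32 and 41 of the 55 members, beside 56.9%, 51.7% and 58.4% of all genes.

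Both comparisons with control use the same 3 control libraries, so their values are set side by side. The 11 members called higher in both were ALKBH2, EGLN3, HSPBAP1, JMJD1C, KDM3A, KDM5B, KDM6B, P3H2, P3H3, P4HA1 and P4HTM, a pattern shown by 11% of all tested genes. The 4 members called lower in both were HIF1AN, JMJD6, OGFOD1 and PLOD3, beside 12.7% of all genes. OGFOD3 and KDM5C were called in opposite directions, beside 4.5% of all genes. A further 7 members were called higher and 9 lower with shIDH1 and not with shJOSD2, 3 were called lower with shJOSD2 and not with shIDH1, and 19 were called in neither. The deposited FPKM values use library totals alone, whereas the tests use trimmed-mean (TMM) scaling, which gave the shJOSD2 libraries factors of 1.07 to 1.08 and the others 0.942 to 0.985. FPKM values of shJOSD2 libraries therefore run high beside the tested differences, and 13 members with separate FPKM ranges in shJOSD2 and control, EGLN1 among them, were not called. With library sizes alone the median of all genes moved to 0.18 in shJOSD2 and to −0.21 between the hairpins. The members' calls then split into 18 higher and 7 lower in shJOSD2, and into 13 higher and 21 lower in shIDH1 against shJOSD2.

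**Figure D2:**
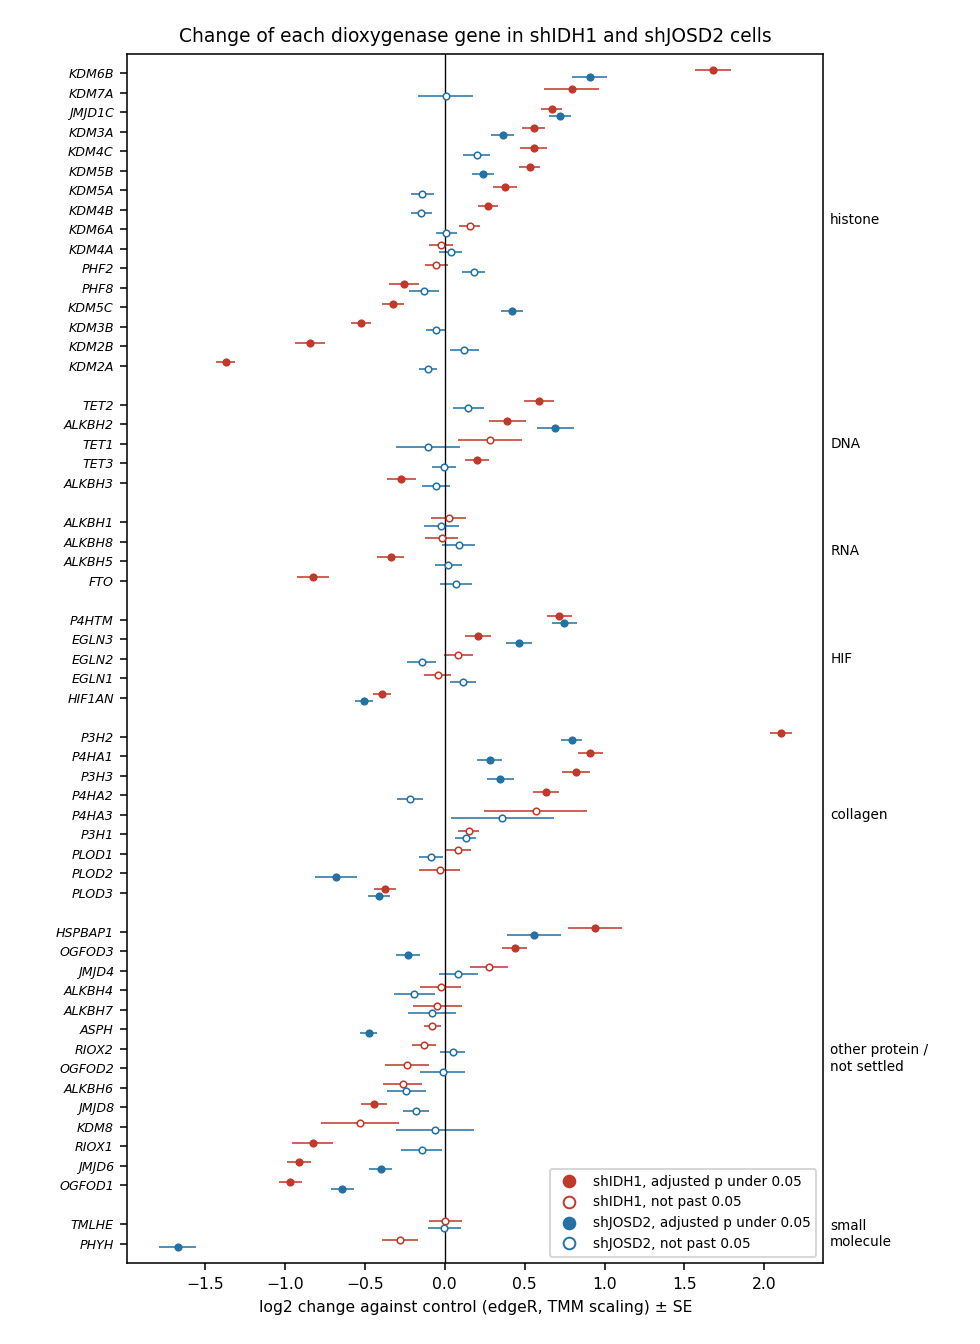
Points give the log2 difference of each tested dioxygenase gene from control in shIDH1 and shJOSD2 (TMM scaling) and bars the SE, with filled points for an adjusted p under 0.05. P3H2 and KDM6B lie farthest right in shIDH1, KDM2A farthest left in shIDH1 and PHYH farthest left in shJOSD2.

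Among the 16 histone demethylases, 8 rose and 5 fell with shIDH1, and 5 rose and none fell with shJOSD2, or 8 and 0 with library sizes alone. Their median log2 differences were 0.21 and 0.08. The histone class split 7 higher and 5 lower in shIDH1 against shJOSD2, which turned to 4 higher and 8 lower with library sizes alone. Over all tested genes 24.5% were higher and 25.6% lower with shIDH1, 18.2% and 20.1% with shJOSD2, and 20.8% and 24% between the hairpins. Among genes of at least 1 FPKM, 67.8%, 52.7% and 62.9% were called in either direction. These shares are also the background of the class and list counts below. The class summed to 86.2 ± 3.66 FPKM in the controls, 86.8 ± 2.05 FPKM in shIDH1 and 106 ± 0.997 FPKM in shJOSD2. The sums of the shIDH1 and control libraries overlapped. Divided by the TMM factors, the sums were 87.3 to 90.8 in control and 96.7 to 99.7 in shJOSD2.

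The 3 members with the largest differences in shIDH1, KDM2A and KDM6B here and P3H2 in the collagen class, are shown by the bases just before their start, from the GRCh38.p14 table of RefSeq, as the stretch in which the core of the hypoxia response element was searched. Capitals mark the cores ACGTG and GCGTG, or their reverse complements CACGT and CACGC.
KDM2A, chr11:67119013-67119262, plus strand: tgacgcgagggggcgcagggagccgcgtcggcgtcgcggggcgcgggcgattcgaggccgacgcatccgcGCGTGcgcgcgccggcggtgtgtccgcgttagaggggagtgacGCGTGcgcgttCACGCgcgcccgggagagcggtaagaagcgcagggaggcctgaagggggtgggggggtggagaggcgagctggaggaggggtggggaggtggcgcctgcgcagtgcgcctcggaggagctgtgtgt
KDM6B, chr17:7833967-7834216, plus strand: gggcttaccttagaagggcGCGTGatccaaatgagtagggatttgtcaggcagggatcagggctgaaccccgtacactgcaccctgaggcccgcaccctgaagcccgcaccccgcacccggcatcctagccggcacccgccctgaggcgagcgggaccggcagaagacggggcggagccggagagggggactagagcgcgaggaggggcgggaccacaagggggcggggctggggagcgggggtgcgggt
P3H2, chr3:190122438-190122528, minus strand: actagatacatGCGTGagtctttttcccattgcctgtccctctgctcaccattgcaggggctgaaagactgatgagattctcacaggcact
KDM2A had 3 cores in 250 bases, KDM6B 1 core in 250 bases and P3H2 1 core in the 91 bases that lie outside the exons of the gene model used. The KDM6B window is that of the RefSeq start, which lies upstream of the start in the deposited table. A match describes letters only and is not a binding site.

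KDM2A, an H3K36 demethylase whose zinc finger binds unmethylated CpG islands, had the largest fall of the family with shIDH1. KDM2A (ENSG00000173120, chr11:67119263-67258082) measured 9.62, 9.99 and 10.1 FPKM in the control libraries, 3.88, 3.76 and 3.86 FPKM in the shIDH1 libraries and 10.4, 10.5 and 9.75 FPKM in the shJOSD2 libraries. Every shIDH1 library lay far below the others, and control and shJOSD2 overlapped. KDM2A fell by 1.37 ± 0.06 on the log2 scale with shIDH1 (SE, edgeR, Benjamini-Hochberg adjusted p = 3.62e-09) and had a log2 difference of −0.11 ± 0.06 with shJOSD2 (adjusted p = 0.176). Its paralogue KDM2B, which brings a variant Polycomb complex to CpG islands, gave 2.92, 2.70 and 2.66 FPKM in the control libraries, 1.73, 1.31 and 1.57 FPKM in the shIDH1 libraries and 3.31, 3.20 and 3.47 FPKM in the shJOSD2 libraries. KDM2B was also low in all 3 shIDH1 libraries; it fell by 0.84 ± 0.09 there (edgeR, Benjamini-Hochberg adjusted p = 7.33e-06).

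KDM6B, an H3K27 demethylase that is inducible in many cell types, had the largest rise of the class. KDM6B (ENSG00000132510, chr17:7839904-7854796) was at 2.25, 1.74 and 2.11 FPKM in the control libraries, 5.68, 7.34 and 6.46 FPKM in the shIDH1 libraries and 4.49, 4.09 and 4.04 FPKM in the shJOSD2 libraries. The 3 groups did not overlap, with control lowest and shIDH1 highest. KDM6B rose by 1.68 ± 0.11 on the log2 scale with shIDH1 (edgeR, Benjamini-Hochberg adjusted p = 1.02e-07) and by 0.91 ± 0.11 with shJOSD2 (adjusted p = 4.2e-05), and shIDH1 exceeded shJOSD2 by 0.77 ± 0.11 (adjusted p = 8.44e-05). Its paralogue KDM6A, an X-linked H3K27 demethylase, was not called and had log2 differences of 0.16 and 0.01. KDM6B thus made up 46.7 ± 1.23% of the summed FPKM of this pair in control, 71.4 ± 3.00% in shIDH1 and 62.0 ± 1.53% in shJOSD2 (SD, n = 3).

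The H3K9 demethylases of the KDM3 group moved apart. JMJD1C gave 6.43, 5.47 and 5.28 FPKM in the control libraries, 9.19, 9.42 and 8.73 FPKM in the shIDH1 libraries and 10.2, 10.5 and 10.6 FPKM in the shJOSD2 libraries. All 6 hairpin libraries exceeded all 3 controls. JMJD1C rose by 0.67 ± 0.07 with shIDH1 and by 0.72 ± 0.07 with shJOSD2 on the log2 scale (edgeR, Benjamini-Hochberg adjusted p = 3.55e-06 and 4.97e-06). KDM3A, which is a textbook HIF target, rose by 0.56 ± 0.07 and by 0.36 ± 0.07. KDM3B, the highest histone demethylase, measured 16.6, 15.1 and 15.5 FPKM in the control libraries, 12.1, 10.7 and 10.1 FPKM in the shIDH1 libraries and 16.7, 16.2 and 17.4 FPKM in the shJOSD2 libraries. Its shIDH1 libraries were the low ones, and it fell by 0.53 ± 0.06 there (edgeR, Benjamini-Hochberg adjusted p = 1.61e-05) and had a log2 difference of −0.06 ± 0.06 with shJOSD2. KDM3B took 64.5 ± 0.809% of the summed FPKM of the 3 genes in control, 44.8 ± 2.18% in shIDH1 and 53.4 ± 0.993% in shJOSD2, while JMJD1C took 23.4 ± 1.28%, 37.4 ± 1.12% and 33.3 ± 0.526%.

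The H3K4 demethylases of the KDM5 group also differed from each other. KDM5C, which is X-linked, was at 8.16, 8.03 and 9.19 FPKM in the control libraries, 6.404, 6.74 and 7.12 FPKM in the shIDH1 libraries and 12.2, 13.0 and 12.5 FPKM in the shJOSD2 libraries. The shIDH1 libraries were lowest and the shJOSD2 libraries highest, with no overlap of either with control. KDM5C fell by 0.32 ± 0.07 with shIDH1 (edgeR, Benjamini-Hochberg adjusted p = 0.00171) and rose by 0.42 ± 0.07 with shJOSD2 (adjusted p = 0.000401) on the log2 scale. KDM5A rose by 0.38 ± 0.07 with shIDH1 and had a log2 difference of −0.14 ± 0.07 with shJOSD2, and KDM5B rose by 0.53 ± 0.07 and by 0.24 ± 0.07. With only control replicate 1 kept as control the KDM5B difference in shJOSD2 was 0.09 and no longer called. Within the group's summed FPKM, KDM5C held 47.0 ± 3.86% in control, 34.5 ± 1.74% in shIDH1 and 54.6 ± 1.08% in shJOSD2.

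KDM7A, a plant homeodomain finger demethylase of H3K9 and H3K27, was a low-level member at 1.06, 0.748 and 0.721 FPKM in the control libraries, 1.21, 1.68 and 1.495 FPKM in the shIDH1 libraries and 1.07, 0.863 and 0.877 FPKM in the shJOSD2 libraries. The shIDH1 libraries were higher than all others, and KDM7A rose by 0.79 ± 0.17 on the log2 scale (edgeR, Benjamini-Hochberg adjusted p = 0.002). With only control replicate 1 kept as control this difference was 0.49 (edgeR, adjusted p = 0.109). Its relatives PHF8 and PHF2 differed from control by −0.25 and −0.05 with shIDH1, and the PHF8 call was lost under 14 of 19 alternative settings. KDM4B and KDM4C, demethylases of H3K9 and H3K36, rose by 0.27 ± 0.06 and by 0.56 ± 0.08 with shIDH1 respectively, whereas KDM4A had a log2 difference of −0.02. KDM4A shares 40.2% of its exonic bases with another gene model on its strand, so its count is uncertain.

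Of the 5 DNA enzymes, 3 rose and 1 fell with shIDH1 and 1 rose with shJOSD2 (2 with library sizes alone), with median log2 differences of 0.28 and 0.00. The shares over all tested genes were 24.5% higher and 25.6% lower with shIDH1 and 18.2% higher with shJOSD2. TET2, which oxidizes 5-methylcytosine and is mutated in blood cancers, had 0.719, 0.783 and 0.798 FPKM in the control libraries, 1.13, 1.13 and 1.21 FPKM in the shIDH1 libraries and 0.9996, 0.940 and 0.886 FPKM in the shJOSD2 libraries. All shIDH1 libraries exceeded all controls. TET2 rose by 0.59 ± 0.10 with shIDH1 (edgeR, Benjamini-Hochberg adjusted p = 0.000237) and had a log2 difference of 0.15 ± 0.10 with shJOSD2 (adjusted p = 0.269). TET3, the most abundant of the 3 paralogues at 2.41 ± 0.0373 FPKM in control, rose by 0.20 ± 0.08 with shIDH1 (edgeR adjusted p = 0.0414), a call lost under 9 of 19 alternatives. TET1 was low, at 0.271 ± 0.0323 FPKM in control, and was not called.

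The other 2 DNA enzymes repair alkylated bases. ALKBH2, which acts on double-stranded DNA, was at 3.87, 4.47 and 3.97 FPKM in the control libraries, 5.16, 5.83 and 5.204 FPKM in the shIDH1 libraries and 6.59, 7.54 and 7.97 FPKM in the shJOSD2 libraries. The shJOSD2 libraries were above both other groups, and the shIDH1 libraries were between. ALKBH2 rose by 0.69 ± 0.12 on the log2 scale with shJOSD2 (edgeR, Benjamini-Hochberg adjusted p = 0.000489) and by 0.39 ± 0.12 with shIDH1 (adjusted p = 0.0137). Without shIDH1 replicate 2 the latter was 0.33 (edgeR adjusted p = 0.0626). ALKBH3, which prefers single-stranded nucleic acid, measured 10.5, 10.6 and 11.9 FPKM in the control libraries, 8.84, 9.66 and 8.89 FPKM in the shIDH1 libraries and 11.1, 11.2 and 13.0 FPKM in the shJOSD2 libraries. Its shIDH1 libraries were the lowest. It fell by 0.27 ± 0.09 with shIDH1 (edgeR adjusted p = 0.0231), a call that 4 of 19 alternatives lost, 3 of them by leaving out control replicate 3, shIDH1 replicate 1 or shIDH1 replicate 3. The difference between the hairpins in this class was 2 higher and 0 lower, and 1 higher and 2 lower with library sizes alone.

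In the RNA class, 2 of 4 fell with shIDH1, beside 25.6% of all tested genes, and none was called with shJOSD2, beside 38.3%. Both that fell are the erasers of N6-methyladenosine (m6A) in messenger RNA. FTO, which also removes the methyl mark next to the cap, was at 1.302, 1.17 and 1.24 FPKM in the control libraries, 0.819, 0.614 and 0.663 FPKM in the shIDH1 libraries and 1.33, 1.47 and 1.52 FPKM in the shJOSD2 libraries. Every shIDH1 library was below every other library. FTO fell by 0.83 ± 0.10 on the log2 scale with shIDH1 (edgeR, Benjamini-Hochberg adjusted p = 2.19e-05) and had a log2 difference of 0.07 ± 0.10 with shJOSD2 (adjusted p = 0.626). The difference between the hairpins was −0.90 ± 0.10 (edgeR, Benjamini-Hochberg adjusted p = 1.39e-05). ALKBH5 measured 12.6, 11.0 and 13.6 FPKM in the control libraries, 10.1, 10.04 and 9.26 FPKM in the shIDH1 libraries and 13.3, 15.4 and 13.1 FPKM in the shJOSD2 libraries. Its shIDH1 libraries were also the lowest, and it fell by 0.34 ± 0.08 there (edgeR, Benjamini-Hochberg adjusted p = 0.00491). ALKBH1 and ALKBH8, which modify transfer RNA, had log2 differences of 0.02 and −0.02 with shIDH1 and −0.02 and 0.09 with shJOSD2.

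Around the erasers, 3 of 14 m6A writers and readers were higher and 7 lower with shIDH1 (median log2 difference −0.18), and 3 were higher and 4 lower with shJOSD2 (−0.05), which became 6 higher and 2 lower with library sizes alone. METTL3, the catalytic writer subunit, fell with shIDH1 by 0.81 on the log2 scale, from 12.5 ± 0.824 to 7.19 ± 0.213 FPKM, and was not called with shJOSD2 (−0.17). IGF2BP1, a reader that stabilizes messenger RNA, was at 0.155, 1.80 and 2.01 FPKM in control, 0.315, 0.298 and 0.221 FPKM in shIDH1 and 0.268, 0.376 and 0.235 FPKM in shJOSD2. It was called lower with both hairpins (−2.26 and −2.32), but control replicate 1 lay below all 6 hairpin libraries, so these calls rest on control replicates 2 and 3. Its paralogues IGF2BP2 and IGF2BP3 rose by 0.97 and 1.14 with shIDH1 and by 0.65 and 0.44 with shJOSD2.

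The HIF class held the 3 prolyl hydroxylases EGLN1 to EGLN3, the asparaginyl hydroxylase HIF1AN and the transmembrane prolyl hydroxylase P4HTM. In each comparison with control 2 rose and 1 fell. The background over all tested genes was 24.5% higher and 25.6% lower with shIDH1, and 18.2% and 20.1% with shJOSD2. With library sizes alone 1 rose and 1 fell with shIDH1, and 3 rose and 1 fell with shJOSD2. EGLN1 was at 17.2, 13.5 and 15.2 FPKM in the control libraries, 16.6, 14.7 and 13.2 FPKM in the shIDH1 libraries and 17.6, 18.9 and 18.4 FPKM in the shJOSD2 libraries. Its shIDH1 and control values overlapped, and its log2 differences of −0.04 and 0.11 were not called. EGLN3, the most hypoxia-inducible of the 3, rose by 0.47 ± 0.08 with shJOSD2 (edgeR, Benjamini-Hochberg adjusted p = 0.000602) and by 0.21 ± 0.08 with shIDH1 (adjusted p = 0.0474), the latter lost under 13 of 19 alternatives. EGLN2 was not called, and 30.6% of its exonic bases lie in other gene models on its strand, including a read-through with RAB4B.

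P4HTM, an endoplasmic reticulum enzyme that can also act on HIF, was at 2.59, 2.33 and 2.28 FPKM in the control libraries, 3.77, 4.11 and 3.96 FPKM in the shIDH1 libraries and 4.49, 4.25 and 4.65 FPKM in the shJOSD2 libraries. All hairpin libraries were above all controls, and the tested differences were 1.64-fold and 1.68-fold. P4HTM rose by 0.72 ± 0.08 with shIDH1 and by 0.75 ± 0.08 with shJOSD2 (log2, edgeR, Benjamini-Hochberg adjusted p = 7.56e-06 and 1.23e-05). HIF1AN fell by 0.39 ± 0.06 and by 0.50 ± 0.06, from 5.29 ± 0.195 FPKM in control to 4.04 ± 0.230 and 4.14 ± 0.0891 FPKM. Among the rest of the HIF system, HIF1A, the oxygen-regulated subunit, rose from 118 ± 9.93 to 204 ± 10.2 FPKM with shIDH1 (log2 0.79) and to 156 ± 5.22 FPKM with shJOSD2 (0.26). VHL, which recognizes hydroxylated HIF, fell by 0.57 with shIDH1 and rose by 0.25 with shJOSD2. Counted together, 3 of the 5 tested genes of the HIF system were higher and 1 lower with shIDH1, and 4 higher and 0 lower with shJOSD2.

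In all, 9 family members are textbook HIF targets: EGLN1, EGLN3, P4HA1, P4HA2, PLOD1, PLOD2, KDM3A, KDM4B and KDM4C. With shIDH1 6 of them rose and none fell (median log2 difference 0.27), or 5 and 0 with library sizes alone (0.27). With shJOSD2 3 rose and 1 fell (0.11), or 5 and 1 with library sizes alone (0.27). Between the hairpins 6 were higher and 1 lower in shIDH1, and 4 and 2 with library sizes alone. Of all genes of at least 1 FPKM, 67.8%, 52.7% and 62.9% were called in either direction in these 3 comparisons. The share called in either direction with shIDH1 is near that background. By direction, 24.5%, 18.2% and 20.8% of all tested genes were higher and 25.6%, 20.1% and 24% lower. The split of the 9 HIF targets by direction was not tested. The element core nearest to the RefSeq start is shown for the 7 of these genes with a match within 250 bases, because HIF binding to such elements is the known route by which hypoxia raises these genes, with up to 10 bases on either side and the core in capitals.
EGLN1, chr1:231422288-231422310, minus strand: gccgtggtgtACGTGcagagcgc
P4HA1, chr10:73096938-73096962, minus strand: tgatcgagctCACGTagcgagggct
PLOD1, chr1:11934682-11934706, plus strand: cgggcccagtGCGTGgcagcgggac
PLOD2, chr3:146161316-146161340, minus strand: aacagtccagACGTGgggcccagga
KDM3A, chr2:86441335-86441359, plus strand: gggaggctgtGCGTGtcttgtgaga
KDM4B, chr19:4969026-4969050, plus strand: gggcgctcggGCGTGgatccggcag
KDM4C, chr9:6757933-6757957, plus strand: cccagcggtcACGTGacggcgcgcg
P4HA1, KDM3A, KDM4B and KDM4C had a match and were called higher with shIDH1. PLOD2 had a match, was not called with shIDH1 and was called lower with shJOSD2. PLOD1 and EGLN1 had a match and were not called in either comparison with control. EGLN3 and P4HA2 had no match in their windows and were called higher with shIDH1, the EGLN3 call being lost under 13 of 19 alternatives. Whether the cores have a part in these differences was not tested. The P4HA1, PLOD1, KDM3A and KDM4C stretches lie inside the deposited bounds of these genes, because the RefSeq start is downstream of the deposited one, and the EGLN1, PLOD2 and KDM4B stretches lie before the deposited start. No match says only that these letters are not in this window.

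Over the family, 51 of 56 members had a RefSeq promoter window; ASPH, RIOX1, RIOX2, P4HA3 and JMJD6 were not matched. Either core, on either strand, was found in the 250 bases before the start of 31 of the 51 members (60.8%) and of 43.1% of all 27305 windows. The letters ACGTG were in 21.6% of member windows and 18.7% of all, and GCGTG in 51% and 31.9%. The palindrome CACGTG counts on both strands. Member windows had a median of 64.0% G and C and 18 CpG, beside 58.0% and 11 over all windows, and GCGTG holds a CpG itself. The TEAD core CATTCC was in 1.96% of member windows and 11.9% of all, and the AP-1 motif TGANTCA in 7.84% and 6.6%.

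Outside the family, 8 of 15 hypoxia-responsive genes were higher and 5 lower with shIDH1, and 4 higher and 3 lower with shJOSD2, or 8 and 2 with library sizes alone. ADM, VEGFA and BNIP3L rose by 2.09, 1.45 and 1.58 on the log2 scale with shIDH1. LDHA, PFKFB4 and the carbonic anhydrase gene CA9 fell there by 1.29, 1.38 and 1.71. CA9 rose by 1.97 with shJOSD2. The list thus moved in both directions in each comparison.

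The 9 collagen hydroxylases showed the largest rise of any class in summed level with shIDH1, from 79.0 ± 3.09 FPKM in control to 124 ± 0.495 FPKM in shIDH1 and 90.6 ± 0.548 FPKM in shJOSD2 (SD, n = 3). The shIDH1 sums lay above control. Most of this rise was P3H2, from 8.68 ± 0.965 to 37.4 ± 1.55 FPKM, followed by P4HA1, from 12.5 ± 1.40 to 23.5 ± 1.43 FPKM. Divided by the TMM factors, the sums were 78.2 to 84.3 in control, 127 to 129 in shIDH1 and 84.2 to 84.7 in shJOSD2, so that shJOSD2 and control overlapped. By gene, 4 rose and 1 fell with shIDH1, 3 rose and 2 fell with shJOSD2, and 5 were higher and none lower in shIDH1 against shJOSD2. The median log2 differences were 0.57, 0.13 and 0.47. Of all tested genes, 24.5%, 18.2% and 20.8% were higher and 25.6%, 20.1% and 24% lower in these comparisons. The split between the hairpins was also 5 and 0 with library sizes alone.

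P3H2, a prolyl 3-hydroxylase of basement membrane collagen, had the largest difference of all 55 tested members. P3H2 (ENSG00000090530, chr3:189956728-190122437) was at 9.73, 7.84 and 8.47 FPKM in the control libraries, 38.3, 38.2 and 35.6 FPKM in the shIDH1 libraries and 16.5, 16.7 and 16.8 FPKM in the shJOSD2 libraries. The shIDH1 libraries were highest, the shJOSD2 libraries were between, and no groups overlapped. P3H2 rose by 2.10 ± 0.07 on the log2 scale with shIDH1, a 4.30-fold difference (edgeR, Benjamini-Hochberg adjusted p = 8.57e-10), and by 0.79 ± 0.06 with shJOSD2 (adjusted p = 1.69e-06). It made up 42.6 ± 3.44% of the summed FPKM of the 3 prolyl 3-hydroxylases in control, 69.7 ± 0.933% in shIDH1 and 52.3 ± 0.0746% in shJOSD2. P3H3, which works in a lysyl hydroxylation complex, gave 5.02, 5.21 and 4.62 FPKM in the control libraries, 8.22, 9.54 and 8.56 FPKM in the shIDH1 libraries and 6.82, 7.24 and 6.91 FPKM in the shJOSD2 libraries. All hairpin libraries exceeded control, and P3H3 rose by 0.82 ± 0.08 and by 0.35 ± 0.08 (edgeR, Benjamini-Hochberg adjusted p = 4.69e-06 and 0.00599). P3H1, the enzyme of fibrillar collagen mutated in a recessive brittle bone disease, had log2 differences of 0.15 and 0.13 and was not called.

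Among the prolyl 4-hydroxylase catalytic subunits, P4HA1 was at 14.0, 12.0 and 11.3 FPKM in the control libraries, 25.1, 22.8 and 22.5 FPKM in the shIDH1 libraries and 15.7, 17.2 and 17.5 FPKM in the shJOSD2 libraries. Its 3 groups did not overlap, with shIDH1 highest. P4HA1 rose by 0.91 ± 0.08 with shIDH1 (edgeR, Benjamini-Hochberg adjusted p = 9.18e-07) and by 0.28 ± 0.08 with shJOSD2 (adjusted p = 0.0126), and with only control replicate 1 kept as control the latter was 0.14 and not called. P4HA2 measured 9.22, 8.51 and 7.44 FPKM in the control libraries, 12.4, 12.8 and 14.0 FPKM in the shIDH1 libraries and 7.55, 8.28 and 8.15 FPKM in the shJOSD2 libraries. Only its shIDH1 libraries stood above control, and it rose by 0.64 ± 0.08 there (edgeR, Benjamini-Hochberg adjusted p = 3.26e-05) and had a log2 difference of −0.22 ± 0.08 with shJOSD2 (adjusted p = 0.0544). P4HA3 was low, at 0.292 ± 0.0489 FPKM in control, and was not called. P4HA1 held 58.9 ± 1.06%, 63.5 ± 2.74% and 66.6 ± 0.102% of the summed FPKM of the 3 subunits in control, shIDH1 and shJOSD2.

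The lysyl hydroxylases went the other way or did not pass. PLOD3 was at 20.3, 22.6 and 20.7 FPKM in the control libraries, 15.8, 16.3 and 17.1 FPKM in the shIDH1 libraries and 18.3, 17.5 and 17.2 FPKM in the shJOSD2 libraries. Both hairpin groups lay below control, and PLOD3 fell by 0.37 ± 0.07 and by 0.41 ± 0.07 (edgeR, Benjamini-Hochberg adjusted p = 0.000667 and 0.000542). PLOD2, which hydroxylates collagen telopeptides, was at 3.50, 2.68 and 3.09 FPKM in the control libraries, 3.74, 2.82 and 2.52 FPKM in the shIDH1 libraries and 2.15, 2.12 and 2.11 FPKM in the shJOSD2 libraries. The shJOSD2 libraries were the lowest, and PLOD2 fell by 0.68 ± 0.13 there (edgeR, Benjamini-Hochberg adjusted p = 0.00113) and had a log2 difference of −0.03 ± 0.13 with shIDH1 (adjusted p = 0.859). PLOD1 had log2 differences of 0.08 and −0.09 and was not called.

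Partners of these enzymes in the endoplasmic reticulum were counted alongside: 6 of 9 were higher and 1 lower with shIDH1 (median log2 difference 0.34), 2 higher and 4 lower with shJOSD2 (−0.04), or 3 and 2 with library sizes alone, and 8 higher and 0 lower in shIDH1 against shJOSD2. P3H4, a partner of P3H3, rose from 8.97 ± 0.842 to 21.2 ± 1.09 FPKM with shIDH1 (log2 1.24). FKBP10 and FKBP14, prolyl isomerases, rose by 0.77 and 1.13. P4HB, the shared subunit of the prolyl 4-hydroxylases, had a log2 difference of 0.03 with shIDH1 and fell by 0.53 with shJOSD2. Most of the fibroblast marker sum given above was ACTA2, a smooth muscle actin, at 11.7 to 13.8 FPKM in control, 26.1 to 28.4 FPKM in shIDH1 and 27.5 to 28.6 FPKM in shJOSD2, whereas COL1A2, COL3A1, DCN and LUM were near 0. The fibroblast marker PDGFRB was at 0.284 to 0.679 FPKM in control, 2.08 to 2.42 FPKM in shIDH1 and 2.66 to 2.89 FPKM in shJOSD2. COL1A1, a substrate of the collagen enzymes, was at 1.74 to 2.21 FPKM in control, 5.14 to 6.08 FPKM in shIDH1 and 1.75 to 2.22 FPKM in shJOSD2. Whether these genes have a part in the results on the collagen class was not tested.

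**Figure D3:**
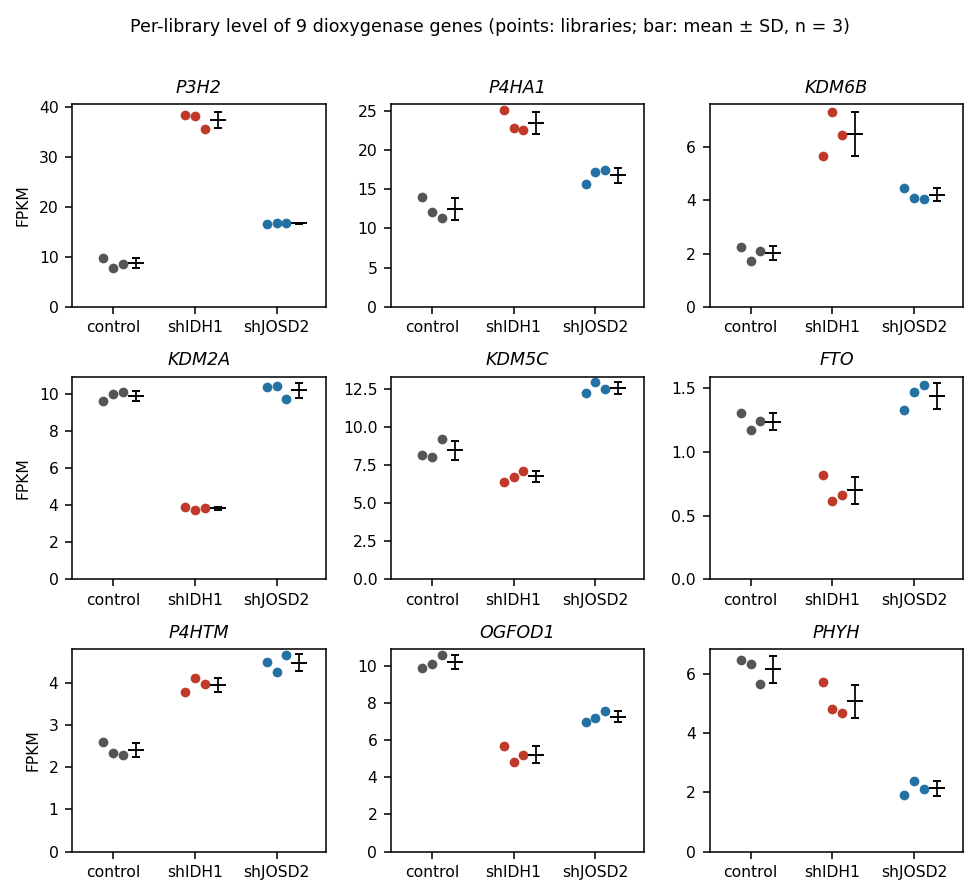
FPKM (axis from 0) of 9 dioxygenase genes in control, shIDH1 and shJOSD2, with a point per library and a bar for the mean ± SD (n = 3). P3H2, KDM6B and P4HA1 are lowest in control and highest in shIDH1, KDM2A and FTO are lowest in shIDH1, and PHYH is lowest in shJOSD2.

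Of the 14 enzymes with other or unsettled substrates, 2 rose and 4 fell with shIDH1, and 1 rose and 4 fell with shJOSD2. Beside these stand 24.5% of all tested genes higher and 25.6% lower with shIDH1, and 18.2% and 20.1% with shJOSD2. The class summed to 126 ± 2.83 FPKM in the controls, 109.5 ± 3.58 FPKM in shIDH1 and 113 ± 2.98 FPKM in shJOSD2, with both hairpin groups below control. ASPH gave 55.1, 51.5 and 52.4 FPKM in the control libraries, 52.8, 50.5 and 47.5 FPKM in the shIDH1 libraries and 42.7, 42.0 and 41.9 FPKM in the shJOSD2 libraries. The shJOSD2 libraries were the lowest, and ASPH fell by 0.48 ± 0.05 there (edgeR, Benjamini-Hochberg adjusted p = 1.91e-05) and had a log2 difference of −0.08 ± 0.05 with shIDH1 (adjusted p = 0.243).

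Enzymes of the ribosome and of splicing were among those that fell. OGFOD1, which hydroxylates a proline of the small ribosomal subunit protein RPS23, was at 9.89, 10.1 and 10.6 FPKM in the control libraries, 5.68, 4.81 and 5.18 FPKM in the shIDH1 libraries and 7.00, 7.17 and 7.57 FPKM in the shJOSD2 libraries. Control was highest and shIDH1 lowest, with no overlap between the 3 groups. OGFOD1 fell by 0.97 ± 0.07 and by 0.64 ± 0.07 on the log2 scale (edgeR, Benjamini-Hochberg adjusted p = 2.71e-07 and 2.15e-05). RIOX1, a ribosomal oxygenase of the nucleolus, was at 6.10, 6.26 and 7.15 FPKM in the control libraries, 3.77, 3.70 and 3.55 FPKM in the shIDH1 libraries and 5.31, 6.61 and 7.67 FPKM in the shJOSD2 libraries. Only its shIDH1 libraries were low, and RIOX1 fell by 0.83 ± 0.13 there (edgeR, Benjamini-Hochberg adjusted p = 0.000164). Its paralogue RIOX2 had log2 differences of −0.13 and 0.05, was not called, and shares 27.6% of its exonic bases with CRYBG3 on the other strand. JMJD6, a lysyl hydroxylase of splicing factors, was at 7.72, 8.40 and 8.31 FPKM in the control libraries, 4.35, 4.14 and 4.53 FPKM in the shIDH1 libraries and 6.66, 6.79 and 7.09 FPKM in the shJOSD2 libraries. Both hairpin groups were below control, shIDH1 further, and JMJD6 fell by 0.91 ± 0.07 and by 0.40 ± 0.07 (edgeR, Benjamini-Hochberg adjusted p = 5.11e-07 and 0.00085).

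HSPBAP1, a protein that binds a small heat shock protein, was low throughout at 0.616, 0.523 and 0.579 FPKM in the control libraries, 0.873, 1.22 and 1.22 FPKM in the shIDH1 libraries and 0.974, 0.953 and 0.876 FPKM in the shJOSD2 libraries. All hairpin libraries exceeded control, and HSPBAP1 rose by 0.94 ± 0.17 with shIDH1 (edgeR, Benjamini-Hochberg adjusted p = 0.000478) and by 0.56 ± 0.17 with shJOSD2 (adjusted p = 0.02). The shJOSD2 call was lost with only control replicate 1 kept as control (edgeR adjusted p = 0.211) and without control replicate 2, shJOSD2 replicate 1 or shJOSD2 replicate 2 (adjusted p = 0.0611, 0.0609 and 0.0534). OGFOD3, a family member with no settled substrate, was at 4.85, 4.98 and 5.07 FPKM in the control libraries, 6.42, 7.14 and 6.66 FPKM in the shIDH1 libraries and 4.96, 4.36 and 4.77 FPKM in the shJOSD2 libraries. The shIDH1 libraries were highest, and shJOSD2 and control overlapped. OGFOD3 rose by 0.44 ± 0.08 with shIDH1 (edgeR, Benjamini-Hochberg adjusted p = 0.000425) and fell by 0.23 ± 0.08 with shJOSD2 (adjusted p = 0.0336), a call lost under 11 of 19 alternatives, with −0.07 when library sizes alone were used.

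JMJD8, a protein of the endoplasmic reticulum lumen, fell by 0.44 ± 0.08 with shIDH1 on the log2 scale (edgeR, Benjamini-Hochberg adjusted p = 0.000579). It shares 37.4% of its exonic bases with STUB1 on the other strand, which had a difference of −0.51, and the strand setting of the counts is not given in the sources used here. Whether the deposited counts kept reads of this pair apart by strand is therefore not known. ALKBH4, ALKBH6, ALKBH7, JMJD4, KDM8, OGFOD2 and RIOX2 were called in neither comparison, with log2 differences from −0.53 (KDM8) to 0.28 (JMJD4) with shIDH1. More than 20% of the exonic bases of ALKBH4, ALKBH6, JMJD4 and OGFOD2 lie in another gene model, so their counts are uncertain as well.

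PHYH, the peroxisomal phytanoyl-CoA hydroxylase of branched-chain fatty acid breakdown, had the largest fall of any member with shJOSD2. PHYH (ENSG00000107537, chr10:13277796-13300064) was at 6.48, 6.35 and 5.65 FPKM in the control libraries, 5.73, 4.82 and 4.70 FPKM in the shIDH1 libraries and 1.91, 2.39 and 2.10 FPKM in the shJOSD2 libraries. The shJOSD2 libraries were far below the other 6, while shIDH1 and control overlapped. PHYH fell by 1.67 ± 0.12 on the log2 scale with shJOSD2, a 3.19-fold difference (edgeR, Benjamini-Hochberg adjusted p = 5.23e-07), and had a log2 difference of −0.28 ± 0.11 with shIDH1 (adjusted p = 0.0555). The difference between the hairpins was 1.39 ± 0.12 (edgeR, Benjamini-Hochberg adjusted p = 9.88e-07). TMLHE, the first enzyme of carnitine synthesis, had log2 differences of 0.00 and 0.00.

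Shares within groups of paralogues do not depend on the scaling of libraries. They were computed for 33 members in 12 such groups, in 3 comparisons each. Shares are tied within each group, and the smallest two-sided p that an exact permutation test of 3 against 3 libraries can give is 0.1, so none can pass 0.05. P3H2 and KDM6B, with shares given above, gained the most with shIDH1. RIOX1 held 59.7 ± 1.42% of the RIOX pair in control, 47.9 ± 1.98% in shIDH1 and 56.2 ± 3.84% in shJOSD2. KDM2A and KDM2B fell together with shIDH1, and the KDM2A share was 78.2 ± 1.3% and 71.5 ± 2.50%.

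**Figure D4:**
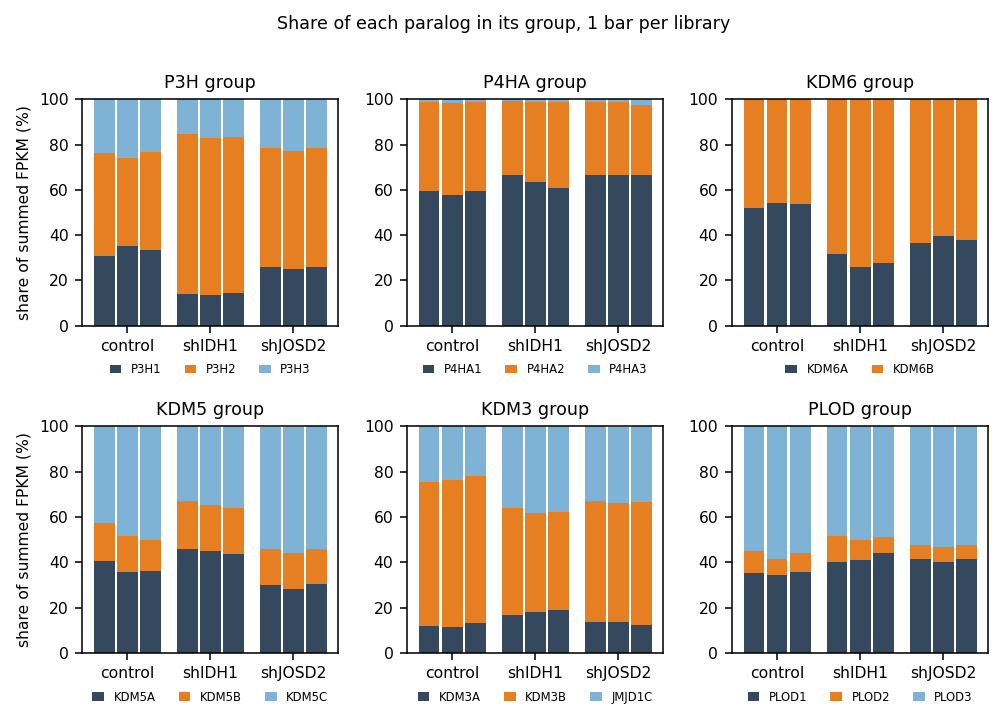
Stacked bars give, for 1 library each, the percent of the summed FPKM of a paralogue group that each member holds. KDM6B and P3H2 take a larger share in all shIDH1 bars than in any control bar, and KDM3B a smaller one.

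Genes that supply or use the cosubstrate were counted from a list outside the family. Of 15 genes of 2-oxoglutarate and 2-hydroxyglutarate metabolism, 2 were higher and 11 lower with shIDH1 (median log2 difference −0.50), and 3 were higher and 11 lower with shJOSD2 (−0.50); IDH1 itself is on the list. OGDH, the first subunit of the complex that oxidizes 2-oxoglutarate, fell from 36.8 ± 0.995 to 11.7 ± 0.594 FPKM with shIDH1 (log2 −1.66) and by 0.44 with shJOSD2. The transaminases PSAT1 and GPT2, which make 2-oxoglutarate from glutamate, fell by 1.87 and 1.93 with shJOSD2. With shIDH1 GPT2 fell by 0.34, and PSAT1 had −0.07 and was not called. D2HGDH, which oxidizes the D form of 2-hydroxyglutarate that mutant IDH1 makes, rose by 0.66 with shIDH1 and had −0.15 with shJOSD2. ADHFE1, a transhydrogenase that forms D-2-hydroxyglutarate, rose by 2.50 and 0.59, from 1.17 ± 0.216 FPKM in control to 6.67 ± 0.852 and 1.96 ± 0.116 FPKM.

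Iron and ascorbate supply split evenly with shIDH1, where 4 of 13 genes were higher and 4 lower, and 2 were higher and 4 lower with shJOSD2, which became 4 and 2 with library sizes alone. The ferritin light chain FTL rose by 0.78 and 0.49, and the transferrin receptor TFRC fell by 0.76 and 0.52. SLC23A1, an ascorbate transporter, rose by 1.82 with shIDH1, from 0.612 ± 0.0917 to 2.18 ± 0.375 FPKM. SLC40A1, the iron exporter ferroportin, rose from 4.34 ± 0.766 to 13.6 ± 0.462 FPKM with shJOSD2. Among 10 demethylases and family genes outside the 56, 2 were higher and 2 lower with shIDH1 and 2 higher and 4 lower with shJOSD2, or 2 and 2 with library sizes alone. The flavin-dependent H3K4 demethylase KDM1A fell by 0.61 and 0.36, and HR, a JmjC protein known from hair growth, fell by 2.76 and 1.75.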

How the data were processed

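Total RNA of RBE cells in 9 libraries was selected with oligo(dT) beads and made into dUTP-marked libraries with molecular identifiers in the adapters, per the labels' protocols. The submitters' processing notes name the tools StringTie 1.3.4d, HISAT2 2.0.4, cutadapt 1.9 and UMI-tools and the build GRCh38. How and on which strand genes were counted, and the annotation, is not given in the sources used here. For every gene and library the authors deposited both a raw count and an FPKM value, named so per the file headers. Low counts gather at multiples of 4 (10737 values of 4 against 5505 of 3 and 3780 of 5), but 9771 values of 1 and 8761 of 2 also occur, and 28.5 to 30.5% of the counts from 1 to 40 are multiples of 4. Part of the fragments may therefore carry about 4 counts, and counting noise may be larger than the totals of 66036276 to 71612713 imply; why is not given in the sources used here.

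Counts were tested with edgeR 4.0.16 (R 4.3.3): filterByExpr, TMM scaling and glmQLFTest, on all 9 libraries in 1 fit without a replicate block, with Benjamini-Hochberg adjustment over 21492 genes. SE is the size of the log2 difference divided by the square root of F. Deposited FPKM values describe levels; means carry the SD. The procedure was also run on simulated counts. These held far fewer changed genes than were called here and 4 counts per fragment throughout, so its error rate on these data was not measured. Values in every library are given for members that pass 0.05 and change at least 1.5-fold in shIDH1 or shJOSD2, for the highest member of each class, and for KDM5C and OGFOD3, which were added after their values were seen; other list genes are named from the most changed called ones or for their role. The members and lists were chosen with earlier results of these data known. Alternatives were DESeq2 1.42.0, RLE scaling, library sizes alone, no filter, a replicate block, the 6 libraries compared, limma 3.58.1 on log2(FPKM + 1) and log2(FPKM + 0.1), counts divided by 4, control replicate 1 kept as the only control, and each library left out in turn. Replicate libraries all differed beyond counting noise, with chi-square over degrees of freedom of 3.88 to 11.0 after division by 4, which assumes that every fragment carries 4 counts and lowers this ratio. Overlapping exons came from GENCODE release 29, whose positions matched 60.9% of the table's genes found in it. Promoter windows came from RefSeq (GRCh38.p14).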

Additional observations from a re-analysis of the deposited data

Results flagged for a closer look

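KDM5C and OGFOD3 drew attention because the 2 hairpins were called in opposite directions against control. The difference between the hairpins comes from the same fit and equals the difference of those 2 values. Its size follows from how the genes were picked, so it is no separate support. KDM5C differed by −0.75 ± 0.07 on the log2 scale in shIDH1 minus shJOSD2 (edgeR, Benjamini-Hochberg adjusted p = 2.57e-06), with −0.32 and 0.42 against control. OGFOD3 differed by 0.67 ± 0.08 (edgeR adjusted p = 1.68e-05), with 0.44 and −0.23 against control. The KDM5C calls against control held under all 19 alternatives, and the OGFOD3 call in shJOSD2 was lost under 11 of them.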

How the results depend on the processing

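Of the members called, 27 of 33 with shIDH1, 16 of 20 with shJOSD2 and 21 of 29 between the hairpins were called under all 19 alternatives. Leaving out 1 library at a time gave 29 to 33 members called with shIDH1, 18 to 21 with shJOSD2 and 25 to 31 between the hairpins. Among counts over the family and over all genes, 2 settings moved a count by over 1.5 times: with library sizes alone 21 members were lower in shIDH1 against shJOSD2 (12 otherwise), where the median of all genes shifts by its lack of TMM scaling; and with only control replicate 1 kept as control 2534 of all genes were higher in shJOSD2 (3907 otherwise), with fewer libraries in the fit, where that library is assumed to vary like the other groups. Counts of lists also moved in shJOSD2: from 5 histone demethylases, 3 m6A genes and 4 hypoxia genes higher to 8, 6 and 8 with library sizes alone and to 7, 6 and 7 with limma on log2(FPKM + 1). Both settings gave 4 histone demethylases higher in shIDH1 against shJOSD2 (7 otherwise). Of 3135 member values under alternatives, 151 had another sign than the value reported, and 0 of these were called in either. With the replicate number as a block, 32, 19 and 30 members were called. Deviations of libraries with the same number correlated between −0.018 and 0.0377, and those of libraries with different numbers between −0.0549 and 0.0288. Whether libraries with the same number were infected or handled together is not stated by the labels and was not tested. Depth limits BBOX1, and low-level members such as TET1 and P4HA3.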
